A study of Mus musculus with 8 samples.

Results

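The nuclear genes of respiratory complex I were followed in 8 single myocardial cells of the mouse heart tube at embryonic day 8.5 (9 somites), 4 from WT and 4 from KO embryos. WT cells carried the genotype Mesp1+/+_Sox17flox/flox and KO cells the genotype Mesp1Cre/+_Sox17flox/flox, so both had floxed Sox17, and the KO cells alone also carried Cre in place of 1 Mesp1 allele. The Mesp1-driven Cre acts in early mesoderm and therefore deletes Sox17, the gene of an HMG-box transcription factor, across all cardiac lineages. The members were all noncontrol probes with an Nduf subunit name (a, b, c, s or v followed by a number, which leaves out the Ndufaf assembly factors), and where a gene had several probes, the 1 with the highest mean signal stood for it. This gave 38 genes from 45 probes, of 22594 genes named on the array. The labels name no embryo for any cell, so each genotype counts as 1 sample of cells, no test between the genotypes was made, and each SD below describes how far the 4 cells of a genotype lay apart.

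Complex I, or NADH:ubiquinone oxidoreductase, is the entry point of the mitochondrial respiratory chain. It takes electrons from NADH in its peripheral arm, passes them along iron-sulphur clusters to ubiquinone, and uses the energy to pump protons through its membrane arm. The NADH-oxidising tip of the peripheral arm is called the N module, and the part next to the membrane, where ubiquinone is reduced, the Q module. The catalytic core of the peripheral arm is made from nuclear genes and that of the membrane arm from mitochondrial DNA, while the many accessory subunits of both arms are nuclear. Cardiomyocytes rely on this chain increasingly as the heart matures. Of the 38 genes, 10 belong to the N module, 6 to the Q module and 20 to the membrane arm. Ndufa4 and Ndufa4l2 keep their names for historical reasons: the Ndufa4 protein is now assigned to cytochrome c oxidase, and Ndufa4l2 is its hypoxia-induced relative.

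Each measurement was the signal of a 60-base probe. Shown as examples are the probes of Ndufa10 and Ndufs1, whose cells did not overlap between the genotypes. The probes of Ndufb3 and Ndufs4, with the largest difference in each direction, are shown as well. They are given 5′ to 3′ in lower case with no base marked.
Ndufa10: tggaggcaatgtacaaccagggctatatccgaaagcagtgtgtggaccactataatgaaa
Ndufb3: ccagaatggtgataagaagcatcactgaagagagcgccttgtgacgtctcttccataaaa
Ndufs1: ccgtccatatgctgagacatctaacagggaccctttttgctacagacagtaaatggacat
Ndufs4: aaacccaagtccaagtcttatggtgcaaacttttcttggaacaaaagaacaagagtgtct

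In mouse build mm9 the files place the Ndufb3 probe at chr1:58652622-58652681 on the plus strand, the Ndufs1 probe at chr1:63190360-63190419 on the minus strand and the Ndufs4 probe at chr13:115078980-115079039 on the minus strand. The Ndufa10 probe was unmapped in the files, as were 3 other member probes, those of Ndufb6 and Ndufb8 among them. The other 34 member probes lay on 15 chromosomes, with at most 5 on any of them (chromosome 17). Exon and intron annotation of this build was not used here.

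Probe pairs of 3 genes are shown because they bear on what a reading means. The Ndufb4 probes overlap, with the 37 shared bases in capitals. The Ndufb5 probes lie 79 bases apart, and the capitals mark AATAAA, the canonical polyadenylation signal, in the upstream probe. The Ndufb11 probes carry the same gene name but lie on different chromosomes.
Ndufb4 probe 1: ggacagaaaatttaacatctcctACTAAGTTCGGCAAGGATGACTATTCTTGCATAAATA
Ndufb4 probe 2: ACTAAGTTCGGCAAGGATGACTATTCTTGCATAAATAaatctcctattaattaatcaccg
Ndufb5 probe 1: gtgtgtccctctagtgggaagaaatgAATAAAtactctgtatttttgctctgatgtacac
Ndufb5 probe 2: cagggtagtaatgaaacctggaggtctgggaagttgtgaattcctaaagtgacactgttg
Ndufb11 probe 1: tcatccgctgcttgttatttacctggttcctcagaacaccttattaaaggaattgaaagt
Ndufb11 probe 2: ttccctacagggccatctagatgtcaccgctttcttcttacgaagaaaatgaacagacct

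The positions in mm9 are chr16:37647711-37647770 and chr16:37647688-37647747 (minus strand) for the Ndufb4 probes, chr3:32650097-32650156 and chr3:32650236-32650295 (plus strand) for the Ndufb5 probes, and chr5:123516741-123516800 (plus strand) and chrX:20194630-20194689 (minus strand) for the Ndufb11 probes. RefSeq places Ndufb11 on the X chromosome, so the bright probe of this name on chromosome 5 is of uncertain identity. The same holds for Ndufs5, whose probe the files place at chr16:42956096-42956155, a different chromosome from that of the RefSeq gene.

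Across the series, 17.1% to 26.0% of 55681 probes were detected per cell, that is, well above background by the scanner software. All 12 myocardial markers examined (such as Tnnt2, Myh6 and Actc1) were detected in every cell. Of these, 10 were higher and 2 lower in KO, with a median log2 difference of 0.415. Their mean log2 signal relative to its mean over cells was -0.276, -0.056, -0.064 and -0.626 in WT cells 1 to 4. In KO cells 1 to 4 it was 0.128, 0.374, 0.273 and 0.247, so the genotypes did not overlap. Whether this bears on the complex I values was not tested. The study had assigned the cells to the myocardium by PCR of marker genes in the amplified cDNA. Here 8 of 10 endothelial markers read at the floor in every cell, and so did all 7 erythroid, all 6 endoderm, 4 of 5 proepicardial and 3 of 4 neural crest markers. Read above the floor were Kdr (442.8 to 693.1) and Plvap (at most 99.3) among the endothelial markers and Wt1 (474.4 and 472.7 in WT cells 2 and 3) among the proepicardial ones. The Sox17 and Mesp1 probes were detected in 0 of 8 cells, so the deletion could not be checked. The WT arrays shared a slide and the KO arrays shared another, and the effects of slide and genotype cannot be told apart. Below, signals are normalized intensities on a linear scale, in which values under 50 were set to 50 (the floor), and differences are in log2, KO minus WT.

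Most complex I genes were detected in most cells, and 21 of the 38 were at the floor in at least 1 cell. Of the 38 members, 20 were detected in all 8 cells, against 9.71% of all genes, and 36 in at least 4 cells, against 24.0%. Ndufab1, the mitochondrial acyl carrier protein, was detected in WT cell 4 alone, where its scaled signal was still at the floor. Ndufa4l2 was detected in WT cell 2 alone, with a signal of 213.8. No member was undetected in all 8 cells, while 46.7% of all genes were.

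WT cells 1 to 4 had 29, 34, 34 and 35 members detected, and KO cells 1 to 4 had 33, 30, 32 and 31. WT cells averaged 33.0 ± 2.71 and KO cells 31.5 ± 1.29 (SD, n = 4), and the genotypes overlapped. Detected on average were 86.85% of the members in WT and 82.88% in KO cells. Of all genes, 27.73% were detected in WT and 23.05% in KO cells, so fewer genes of any kind were detected in KO. WT cell 1 had the lowest count although KO cells 2 and 3 had fewer genes detected in all (22.6% of genes in WT cell 1, 20.1% in KO cell 2 and 19.7% in KO cell 3). Members at the floor numbered 11, 8, 5 and 5 in the WT cells and 6, 8, 10 and 8 in the KO cells, or 61 of 304 readings. Of these readings, 15 were called detected on their own array and fell to the floor only after scaling. In the other 46, a lack of transcripts and a loss during cDNA synthesis or amplification cannot be told apart.

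**Figure D1:**
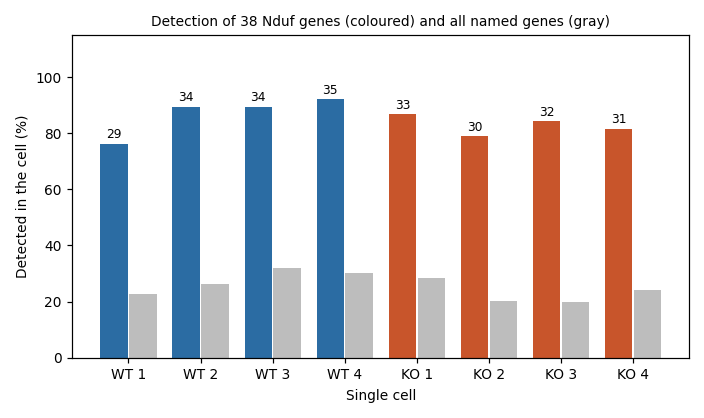
Share of the 38 Nduf genes (coloured bars, with the number of genes above each) and of all named genes (gray bars) detected in each single cell, in percent. The member share ran from 76.3% in WT cell 1 to 92.1% in WT cell 4, with all 4 KO cells between these values, and stood above the share of all genes in each of the 8 cells.

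In the N module, the catalytic core is formed by Ndufv1, Ndufv2 and Ndufs1. Ndufv1 binds NADH and the flavin and read 9400, 9518, 11880 and 2955 in WT and 2846, 7643, 19846 and 12386 in KO cells. It was detected in every cell and spanned 2.80 on the log2 scale, among the 3 smallest ranges of the members detected in all 8 cells. Ndufv2, the neighbouring iron-sulphur subunit, read 5602, 50, 6157 and 5064 in WT and 11121, 154.9, 50 and 3205 in KO cells. It was bright in most cells of both genotypes and at the floor in 1 cell of each.

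Ndufs1 is the largest core subunit and carries several iron-sulphur clusters. Its signals were 50, 1686, 398.7 and 4009 in WT and 4522, 5465, 12391 and 5251 in KO cells. All 4 KO cells lay above all 4 WT cells. Among the 36 members detected in at least 4 cells Ndufs1 alone was higher in this way, where 1.49% of the 5430 such genes were. The means differed by 3.39 (9.24 ± 2.77 in WT, 12.63 ± 0.66 in KO, SD between cells, n = 4), or 10.5-fold. Without WT cell 1, the cell at the floor, the difference was 2.21, short of the 5-fold rule.

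The accessory subunits of the N module differed among themselves. Ndufs4, a subunit whose loss is known to cause a mitochondrial encephalopathy, read 50, 50, 50 and 91.3 in WT and 19836, 5938, 5538 and 50 in KO cells. It was bright in 3 KO cells and in no WT cell, and KO cell 4 overlapped the WT cells. The difference of 5.36 (5.86 ± 0.43 in WT, 11.22 ± 3.81 in KO, n = 4) was the largest of any member in either direction and ranged from 4.35 without KO cell 1 to 7.25 without KO cell 4. With 3 WT cells at the floor its size depends on the floor, and with no floor it was 7.53. Ndufs4 was detected in 2 WT and 3 KO cells, so it was not present in the sense used for the 5-fold rule, and it is named here because of its value.

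Ndufs6, a zinc-binding subunit, read 101.0, 5349, 5591 and 27764 in WT and 12661, 4559, 5379 and 19726 in KO cells, a difference of 1.55 that became -0.06 without WT cell 1. Ndufa2 and Ndufa7 were among the 5 members of highest mean signal. Ndufa2 read 101866, 10316, 4261 and 4686 in WT and 20033, 31571, 17628 and 4551 in KO cells, with WT cell 1 far above the rest. Ndufa7 read 8039, 11747, 19661 and 3746 in WT and 5210, 47309, 11995 and 17742 in KO cells, and its difference of 0.73 was smaller than the spread between cells (SD 1.01 in WT and 1.32 in KO).

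Ndufv3, a small accessory subunit, was the member whose probes differed in direction. The brightest read 14596, 10377, 8217 and 5414 in WT and 6220, 109.7, 2637 and 12872 in KO cells, a difference of -2.05, which was -0.59 without KO cell 2. The other Ndufv3 probes differed by -0.03 and 1.73. Their signals were far dimmer, at most 830.9, and the r between the brightest probe and these was -0.09 over 8 cells and -0.46 over the 6 cells in which both were above the floor. Over the 10 N module genes the median difference was 0.35, with 3 lower and 7 higher in KO, where 2510 of the 5430 genes detected in at least 4 cells were lower and 2279 higher. Relative to its mean over cells, the mean log2 signal of these 10 genes overlapped between the genotypes, with KO cell 4 (-0.118) below WT cell 3 (0.147).

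The Q module genes were lower in KO in 5 of 6 cases, with a median difference of -1.18, where 2510 of the 5430 genes detected in at least 4 cells were lower. The mean log2 signal of the 6 genes relative to their mean over cells was -0.488, -0.901, 1.968 and 1.305 in WT cells. In KO cells it was 0.639, 0.422, -1.9 and -1.045, so the genotypes overlapped. Ndufs7, which carries the cluster next to ubiquinone, read 13221, 3733, 11315 and 8989 in WT and 17074, 13438, 50 and 4225 in KO cells. Its difference of -1.67 rested on KO cell 3 and was 0.22 without it.

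Ndufs3, a neighbouring core subunit, read 50, 2350, 2299 and 3541 in WT and 8697, 2507, 50 and 50 in KO cells, so its brightest cell and 2 of its 3 cells at the floor were all KO cells. Ndufs8, an iron-sulphur subunit, read 50, 882.5, 882.6 and 50 in WT and 50, 50, 64.6 and 4337 in KO cells. In none of these core genes did the genotypes separate.

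The differences of the core genes moved with single cells. Leaving out KO cell 3 brought Ndufs3 to 0.04, Ndufs7 to 0.22 and Ndufv2 to 0.03, and leaving out WT cell 2 brought Ndufs8 to 0.32. The mean log2 signal of the core genes relative to their mean over cells was -0.75, -0.43, 1.11 and 0.66 in WT and 0.62, -0.32, -1.48 and 0.59 in KO cells. The cells of the genotypes overlapped, with KO cell 3 lowest.

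**Figure D2:**
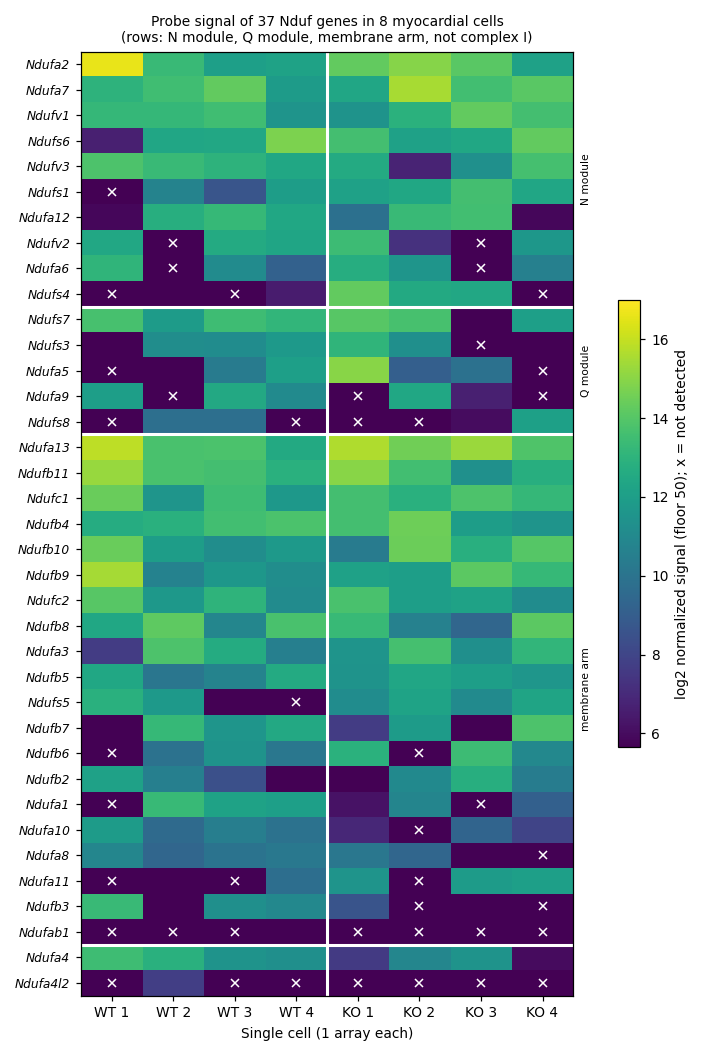
Log2 normalized signal of 37 Nduf genes (rows, grouped by module and sorted by mean signal) in each of 4 WT and 4 KO cells (columns), with a cross where the probe was not detected. Dark readings are scattered over all 8 columns, so that no cell is bright for every gene.

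The membrane arm held the other member whose genotypes did not overlap. Ndufa10, an accessory subunit related to nucleoside kinases, read 3723, 758.1, 1438 and 959.9 in WT and 118.8, 50, 626.5 and 250.1 in KO cells. All 4 KO cells lay below all 4 WT cells. Among the 36 members detected in at least 4 cells Ndufa10 alone was lower in this way, where 2.03% of the 5430 such genes were. With 36 members, a single gene in each direction cannot be told from the shares of all genes. The highest KO cell and the lowest WT cell were close, at 626.5 and 758.1. The means were 10.46 ± 1.01 in WT and 7.45 ± 1.55 in KO (SD between cells, n = 4), a difference of -3.01, or 8.04-fold, and it ranged from -3.66 to -2.39 when each cell in turn was left out. The study named Ndufa10 and Ndufa4 as reduced from these same arrays, so neither is independent evidence.

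Ndufb3, a small single-pass membrane subunit, read 10401, 50, 2500 and 1992 in WT and 389.9, 50, 50 and 50 in KO cells. It was bright in 3 WT cells, while 3 KO cells and WT cell 2 were at the floor. In WT cell 2 and KO cell 3 the probe was called detected before scaling. The difference of -3.92 (10.31 ± 3.28 in WT, 6.39 ± 1.48 in KO, n = 4) was the largest in this direction and ranged from -5.52 without WT cell 2 to -2.92 without WT cell 1. Its size depends on the floor, and with no floor it was -6.24.

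Ndufa8, a twin-cysteine subunit on the intermembrane-space side, read 1830, 673.0, 999.5 and 1161 in WT and 1121, 663.3, 50 and 50 in KO cells. KO cells 1 and 2 read within or just under the WT values and KO cells 3 and 4 were at the floor. Its difference of -2.40 fell short of 5-fold without WT cell 1 (-2.15), KO cell 3 (-1.74) or KO cell 4 (-1.73), and also under quantile normalization (-1.67) and normexp background correction (-2.07).

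Ndufs5, another subunit of the intermembrane-space side whose probe is of uncertain identity (above), was 2.70 higher in KO, or 6.50-fold. It read 7491, 3379, 50 and 50 in WT and 2267, 4736, 2136 and 4921 in KO cells. The KO cells lay between the bright and the floored WT cells, and the difference was 1.56 without WT cell 3 and 1.58 without WT cell 4.

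A further 3 members passed 5-fold besides Ndufs4 without being detected in all cells of either genotype, and are named because of their values. Ndufa1, a small membrane-anchored subunit, read 50, 10188, 4655 and 4253 in WT and 73.0, 1774, 50 and 566.4 in KO cells, a difference of -2.86 that fell short of 5-fold without WT cell 2 (-2.05), KO cell 1 (-2.23) or KO cell 3 (-2.08). Ndufa9 of the Q module read 4174, 50, 5825 and 2131 in WT and 50, 5417, 100.3 and 50 in KO cells, a difference of -2.72 that fell short of 5-fold without WT cell 1 (-2.14), WT cell 3 (-1.97), KO cell 1 (-2.001) or KO cell 4 (-2.08). Ndufa11 of the membrane arm read 50, 50, 50 and 850.9 in WT and 2908, 50, 3764 and 4250 in KO cells, a difference of 3.60 that ranged from 3.02 without KO cell 4 to 5.24 without KO cell 2. In each of these genes 1 cell or more of a genotype read like the cells of the other.

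The Ndufa4 probe, to the gene now assigned to cytochrome c oxidase, was detected in all 8 cells. It read 11399, 7296, 2887 and 2521 in WT and 191.3, 1879, 2835 and 62.3 in KO cells. KO cell 3 overlapped the WT cells, and the spread was wider in KO (SD 2.64) than in WT (SD 1.05). The difference was -3.31, or 9.88-fold, and was -2.30 without KO cell 4, just short of 5-fold.

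**Figure D3:**
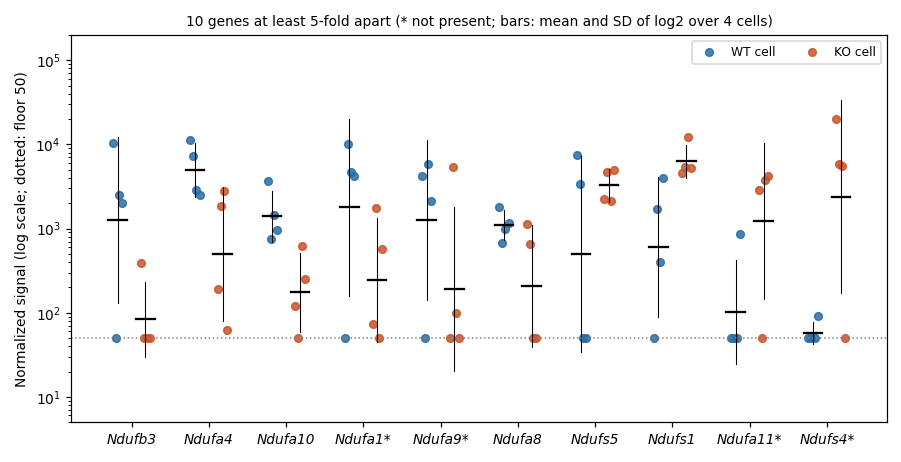
Normalized signal (log scale) of the 10 Nduf genes whose genotype means were at least 5-fold apart, with a point for each cell, the mean of log2 values as a horizontal bar and its SD over 4 cells as a vertical line. The cells of Ndufa10 and Ndufs1 do not overlap, and 9 of the 10 genes have at least 1 cell at the floor of 50, the exception being Ndufa4.

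Counted by the 5-fold rule, 4 of the 27 present members were lower in KO (Ndufb3, Ndufa4, Ndufa10 and Ndufa8), where 10.7% of the 3366 present genes were. Higher in KO were 2 present members (Ndufs1 and Ndufs5), where 2.7% of genes were. A gene was present if either genotype had it detected in all 4 of its cells. Of the present members past 5-fold, Ndufa4 alone was detected in all cells of both genotypes. The others passed the filter only through the genotype in which they were higher, so these counts depend in part on the filter. With no such filter 6 of 38 members were lower and 4 higher, where 3.37% and 0.89% of all genes were. The shares of all genes include the 46.7% detected in no cell, while no member was undetected throughout. The unfiltered shares are thus not like for like. Just outside the rule was Ndufv3 at -2.05, and just inside it Ndufa8 at -2.40. With no floor the differences were -4.04 for Ndufa10, -3.57 for Ndufa8, 4.49 for Ndufs1, 4.03 for Ndufs5 and 5.70 for Ndufa11, so the size of a difference with cells at the floor is tied to it. The count of lower members was 7 without WT cell 2 or without KO cell 1, and that of higher members was 1 without WT cell 1 or 3 and 4 without KO cell 2 or 4.

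The members were divided evenly by direction. Of the 36 members detected in at least 4 cells, 18 were lower and 18 higher in KO, and the median difference was -0.002. Of the 5430 genes of this kind, 2510 were lower and 2279 higher, and their median of 0.00 fell among genes with no difference. The mean difference was -0.09 for the members and -0.311 for these genes. Without Ndufa4 and Ndufa10 the median of the members was 0.26, and without Ndufa4 and Ndufa4l2 it was 0.19. It was 0.40 for the membrane arm and -0.09 for the peripheral arm, and neither value kept its sign when each cell in turn was left out. The mean log2 signal of the members relative to their mean over cells was -0.07, -0.29, 0.38 and 0.16 in WT and 0.33, 0.11, -0.43 and -0.20 in KO cells. The differences between cells of the same genotype were thus wider than that between the genotype means (0.05 ± 0.29 and -0.05 ± 0.33, n = 4).

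**Figure D4:**
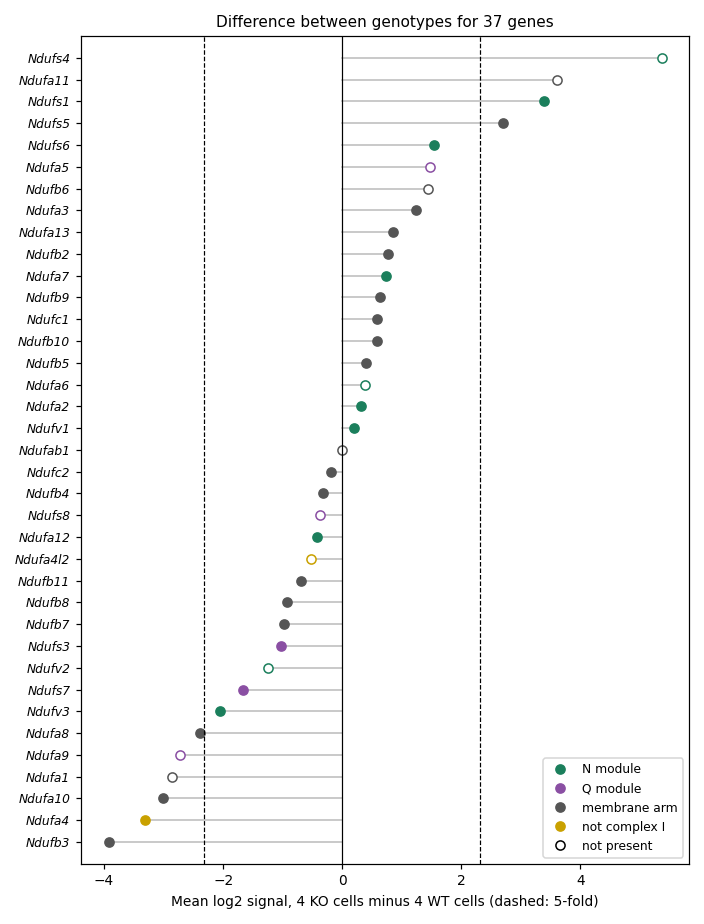
Difference of mean log2 signal between 4 KO and 4 WT cells for 37 Nduf genes, sorted, coloured by module, with open circles for genes not present and dashed lines at 5-fold. The genes run from -3.92 for Ndufb3 to 5.36 for Ndufs4, and genes of the N module, the Q module and the membrane arm lie on both sides of 0.

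No reading was at the floor for 17 members, all detected in all 8 cells. Among them 7 were lower and 10 higher in KO, from -3.31 for Ndufa4 to 1.55 for Ndufs6, and their median was 0.32. The 1163 genes of the same kind had a median of 0.21. Ndufa4 was thus the only 5-fold difference among members measured above the floor in every cell.

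The spread from cell to cell within each genotype was wide for the complex I genes. For the 20 members detected in all 8 cells, the median SD was 1.38 in WT and 1.36 in KO, and the median range over the 8 cells was 4.68 on the log2 scale. For the 2194 genes detected in all 8 cells these values were 0.81, 0.77 and 2.67. The members also had brighter probes (median of the mean log2 signal 12.35, against 8.52). For the 895 genes at least as bright as the dimmest of these members, the medians were an SD of 1.01 in WT and 1.04 in KO and a range of 3.24. These values are a description of 8 cells, and whether the members differ from other genes of equal signal was not tested.

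The widest ranges among them were those of Ndufs7 (8.42), Ndufb7 (8.19) and Ndufs6 (8.10). Ndufb7, a twin-cysteine subunit of the membrane arm, read 50, 9877, 3033 and 5738 in WT and 204.4, 3745, 50 and 14620 in KO cells, so each genotype held a dark and several bright cells. The smallest ranges were those of Ndufb5 (2.50), Ndufv1 (2.80) and Ndufc1 (2.83). Ndufb5 read 5433, 1095, 1707 and 6192 in WT and 2861, 5247, 4123 and 3107 in KO cells. Ndufc1, a small membrane-arm subunit and also among the 5 members of highest mean signal, read 21775, 3057, 11302 and 3319 in WT and 12449, 7335, 14493 and 9601 in KO cells. In both genes the KO cells lay within the range of the WT cells.

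The remaining members of highest mean signal were Ndufa13 and Ndufb11. Ndufa13, known also as a cell death regulator, read 58998, 13628, 13971 and 5957 in WT and 50765, 23498, 39759 and 14794 in KO cells, a difference of 0.85. The Ndufb11 probe on chromosome 5 read 38728, 13798, 12423 and 7339 in WT and 32561, 12119, 2633 and 6969 in KO cells, a difference of -0.69. WT cell 1 was the highest WT cell in both, and the genotypes overlapped.

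Of the 36 members detected in at least 4 cells, 18 had in the same genotype a cell at the floor and another above 1000, where 41.9% of all such genes did. This was so in WT cells for 12 members, in KO cells for 15 and in both genotypes for 9, such as Ndufb7, Ndufs3, Ndufv2 and Ndufb6. The cells at the floor differed from gene to gene. Between pairs of the 20 members detected in all 8 cells, the median Pearson r over the 8 cells was -0.03 (190 pairs, 91 of them above 0), and over the 2060 genes detected in all 8 cells whose scaled signal varied it was 0.04. The most similar pair was Ndufb2 and Ndufv1 (r = 0.86) and the most opposed was Ndufa13 and Ndufb7 (r = -0.84). All points of such an r share the same 8 arrays, and with so few cells it describes these cells only.

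Different probes to the same transcript showed how far such readings repeat within a cell. All members with more than a single probe and 4 probes described in the files as member genes under other names were examined. The overlapping Ndufb4 probes differed by 0.87 in log2 with an SD over 8 cells of only 0.07, while the signal itself varied between cells with an SD of 0.99 (r = 0.998). For Ndufc2 the SD of the difference was 0.05 and that between cells 1.11 (r = 0.999). For Ndufb2, whose probe positions also overlap, they were 0.13 and 1.51 over the 6 cells above the floor (r = 0.997). For Ndufb6 they were 0.28 and 1.44 over 6 cells (r = 0.985). Both Ndufb6 probes were at the floor in the same cells, WT cell 1 and KO cell 2. For these genes the SD between cells was at least 5 times the SD of the difference between probes. The probes of a pair read the same amplified cDNA on the same array. Their agreement therefore does not cover loss during cDNA synthesis or amplification.

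The Ndufa5 probes were at the floor in the same 3 cells, and over the other 5 cells the SD of their difference was 0.86 and that between cells 2.35.

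Other pairs did not repeat. Ndufb5 probe 2, downstream of the AATAAA marked above, was at the floor in 5 cells and read 780.7 in WT cell 4, 1305 in KO cell 2 and 1263 in KO cell 4, while probe 1 was detected in all 8. The Ndufb11 probe on the X chromosome read 125.3 in WT cell 1 and 89.1 in WT cell 4 and was at the floor in the other 6 cells. The probes described as Ndufa13 and Ndufb5 under other names were at the floor in all 8 cells.

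**Figure D5:**
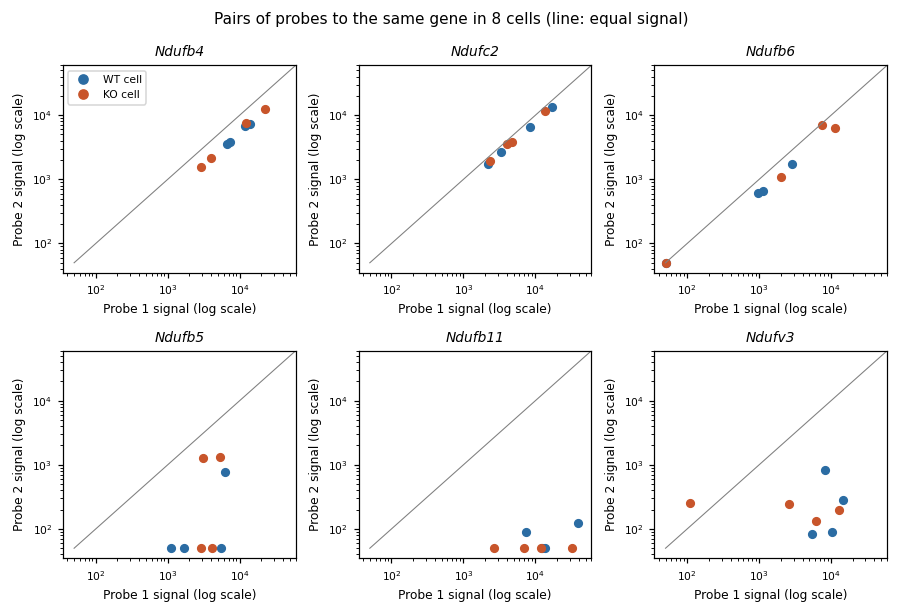
Normalized signal (log scales) of probe 2 against probe 1 for 6 genes, with a point for each WT or KO cell and a line of equal signal. The Ndufb4, Ndufc2 and Ndufb6 pairs follow a line over the 8 cells, while the second probes of Ndufb5, Ndufb11 and Ndufv3 lie below the line in nearly all cells, many of them at or near the floor.

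The letters AATAAA, searched on the printed strand of the 38 member probes, were found in 12 (31.6%), where 14.1% of the probes of all genes held them. They were in 10 of the 20 members detected in all 8 cells and in 2 of the other 18. Over all genes they were in 22.5% of the probes of genes detected in all 8 cells and in 13.2% of the others. The reverse complement TTTATT was found in 0 member probes and in 4.49% of all. An AATAAA and a TTTATT cannot overlap each other. The median GC content was 45.0% in member probes and 41.7% in all. The cDNA had been primed from the poly(A) tail, and the distance of each probe from it was not analysed here.

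The mitochondrially encoded subunits of the membrane arm were read by 5 probes that the files describe as complex I subunits of the mitochondrial genome, chosen from these descriptions. All 5 were detected in all 8 cells. The subunit 2 probe read 96475, 35861, 60501 and 27678 in WT and 84867, 87373, 5971 and 72121 in KO cells, so KO cell 3 was lowest. The subunit 4 probe read 19732, 16754, 27659 and 14721 in WT and 14263, 27819, 8288 and 17408 in KO cells, again with KO cell 3 lowest.

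The differences were -0.28 for subunit 1, -0.22 for subunit 2, -0.31 for subunit 4 and 1.002 for chain 6, with overlapping cells for each. A probe named as subunit 6 on the opposite strand, which is of uncertain identity, differed by 0.02. Their ranges over the 8 cells, 1.75 to 4.01, lay under the median range of the nuclear members detected in all cells (4.68), but the probes are few.

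The assembly factors, which build the complex and do not stay in it, were mostly dark. Of 15 on the array, 2 were detected in all 8 cells and 3 in none (Ndufaf2, Acad9 and Tmem126b). Timmdc1, which helps to assemble the membrane arm, read 21095, 9600, 4673 and 5454 in WT and 3973, 9198, 15528 and 9235 in KO cells, a difference of 0.005. Ndufaf7, a mitochondrial methyltransferase, was detected in all 8 cells but at the floor after scaling in 5. No present assembly factor was 5-fold apart. Over the 5 factors detected in at least 4 cells the median was 0.005.

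Among 10 regulators of respiratory genes, Esrra, a nuclear receptor that drives them, was detected in all 8 cells, with 17033, 1724, 166.3 and 2708 in WT and 14263, 3082, 10229 and 50 in KO cells. Pprc1 was detected in all 8 as well, above the floor in KO cell 2 alone, and Tfb1m and Tfb2m were detected in none. Gabpa, a subunit of the factor NRF-2, was detected in 3 WT and in 0 KO cells, with 2392, 133.0, 50 and 77.9 in WT. No present regulator was 5-fold apart.

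Of 40 genes of complexes II to V, 36 were detected in all 8 cells, and their median difference was -0.04. Of 39 present, 1 was at least 5-fold lower in KO (Uqcrb, -2.33), where 10.7% of present genes were, and 4 higher, where 2.7% were (Atp5l 2.94, Atp5e 2.78, Atp5k 2.47 and Atp5j2 2.34, all subunits of ATP synthase). In these 4 genes WT cell 1 had the lowest signal of all 8 cells, as it did in Ndufs6. WT cell 1 also had the fewest complex I members detected, and its part in these differences was not tested. Uqcrb and Atp5l were present only through the genotype in which they were higher.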

How the data were processed

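Each array, a 1-colour Agilent mouse array, received Cy3-labelled RNA that T3 polymerase had made from the amplified cDNA of a single cell. The deposited files held scanner intensity values, background-corrected by Agilent Feature Extraction 12.0.2.2 per the file headers. The authors set expression under 50 to 50 and normalized each chip on its 50th percentile.

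Here control spots and outlier-flagged spots (146 to 220 per array) were left out, and no spot was saturated. Log2 signals were averaged per probe (55681 probes) and each array was shifted (by -0.76 to 0.68) to a common 50th percentile over the 5301 probes well above background on all 8 arrays. Values under 50 were then set to 50. Genes were the array's symbols that matched a RefSeq symbol or synonym, each with the values of its probe of highest mean log2 signal. Python 3.11.15, pandas 2.3.3 and, for normexp, limma 3.58.1 were used. The scaling and the 5-fold rule were checked on simulated data. The simulated probes varied less between cells than the members and held no lost readings. That check therefore does not cover how the 5-fold rule behaves in cells as variable as these.

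Named in the text were members present and 5-fold apart, members whose cells did not overlap, the 5 brightest, those detected in 0 or 1 cells, core subunits, Ndufa4, Ndufa10 and Ndufa4l2, the 3 with the smallest and the 3 with the largest range, and those whose probes disagreed in direction. Members and lists were chosen with earlier results of these data known. Of the 38 members, 1 is counted with its lists but its own values are not reported here. The number of arrays limits the precision. Alternatives covered scaling, background, floor, filter, probes, spots, members, fold and single cells.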

Additional observations from a re-analysis of the deposited data

Results flagged for a closer look

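In 13 of 78 sets of 4 cells (37 genes in each genotype, the number of members detected and the mean member signal), the highest or lowest cell stood apart from the other 3 by more than Dixon's critical share of the range, which chance does in about 1 in 20 sets of freely varying values. WT cell 1 was the lowest WT cell for Ndufa1 (50), Ndufa12 (58.3) and Ndufs3 (50) and for the number of members detected (29). WT cell 2 was the lowest for Ndufv2 (50) and the highest for Ndufa4l2 (213.8). WT cell 4 was the highest for Ndufa11 (850.9) and Ndufs4 (91.3) and the lowest for Ndufv1 (2955). Among KO cells, cell 1 was the highest for Ndufb3 (389.9), cell 2 the lowest for Ndufa11 (50) and the highest for Ndufa9 (5417), and cell 4 the highest for Ndufs8 (4337). In the WT cells of Ndufa11, Ndufa4l2 and Ndufs4 and the KO cells of Ndufb3 the other 3 cells were all at the floor of 50, so the gap there is fixed by the floor and the chance rate does not apply.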

How the results depend on the processing

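No called member difference changed sign under any alternative run, and 162 of 186 alternative values of the summaries stayed within 1 SD between cells or, for counts, within 1.5 times. Some of these could not move, since the number of members detected does not depend on scaling, background or floor. Nor can a change of filter or fold alter the difference of a member. The called members were chosen for a large difference, so a change of sign was unlikely from the start. The SD rule also passes a change of sign, such as the peripheral arm median from -0.089 to 0.306 without WT cell 3. The median over the members was -0.351 with scaling over all probes, -0.402 with positive and significant signal as detection and 0.432 without WT cell 1 and KO cell 3, a choice made after seeing the data because these cells had the most members at the floor. It ranged from -0.206 to 0.213 when each cell was left out. All-probe scaling moved the median of all genes detected in all 8 cells from 0.12 to 0.00, and quantile normalization moved it to 0.32. The membrane arm median was 0.054 with scaling over all probes and ranged from -0.152 to 0.572 over the left-out cells. The assembly factor median was -1.021 without WT cell 1 and KO cell 3 and ranged from -0.260 to 0.434 over the left-out cells. The count of members 5-fold lower was 1 when detection in all 8 cells was required, 2 without Ndufa4 and Ndufa10, 8 at 2-fold, 1 at 10-fold and 3 to 7 over the left-out cells. The count 5-fold higher was 0 when detection in all 8 cells was required, 4 with no filter, 4 with positive and significant signal, 4 at 2-fold, 1 at 10-fold and 1 to 4 over the left-out cells. The peripheral arm ranged from -0.368 to 0.306, the members detected from -2.83 to -0.83 and the mean member signal from -0.242 to 0.023 over the left-out cells.

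No paired analysis was possible because no result comes from a test and the cells of the genotypes share a number only. The slide could not be used as a block, since no slide held both genotypes.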
